A study of Homo sapiens with 2 samples.

Results

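RNA from HUH7, a human hepatocellular carcinoma cell line, was sequenced after immunoprecipitation with an antibody against the splicing factor ZMAT2, and 8 long noncoding RNAs (lncRNAs) known as nuclear or partly nuclear were followed through the count table. The members are MALAT1, NEAT1, KCNQ1OT1, MEG3, PVT1, TUG1, OIP5-AS1 and MIR17HG, chosen by name among 56303 genes, and 7 of the 8 had at least 20 reads in both libraries together, as did 17915 genes in all. The 2 groups were the ZMAT2 IP, RNA recovered with the antibody from most of a lysate, and Input, a smaller share of lysate set aside before precipitation, with 1 library in each. The labels give no treatment or genotype, both groups come from 1 cell line, and the rabbit IgG control that the protocol describes was not analysed here. A higher or lower ratio therefore does not by itself show or exclude binding to ZMAT2. Reads in genes numbered 25047635 for the IP and 23485789 for Input.

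An immunoprecipitation of RNA with its bound protein compares how much of each RNA is recovered with how much was in the lysate. Many lncRNAs stay in the nucleus, where some build bodies around which splicing factors gather and others act on the gene locus that made them. MALAT1 sits in nuclear speckles, the stores of splicing factors, and NEAT1 is the scaffold of paraspeckles. KCNQ1OT1 and MEG3 are imprinted, PVT1 lies next to the MYC oncogene, and MIR17HG is the primary transcript of a microRNA cluster. TUG1 and OIP5-AS1 are known from both nucleus and cytoplasm. The count table does not measure where in the cell an RNA lay, so the name nuclear-retained rests on background knowledge alone.

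All 7 measured lncRNAs stood lower in the IP than in Input, with log2 ratios from -1.71 for NEAT1 to -0.08 for PVT1 and a median of -0.93. The ratios compare CPM, depth-scaled read counts, after TMM scaling, which centres on the bulk of genes, and were computed with a prior count of 0.5. Past 2-fold lower, the size used here for a call, were NEAT1, MIR17HG and MALAT1, 3 of 7, and 0 of 7 were past 2-fold higher. Of all genes kept, 7.5% were past 2-fold lower and 7.72% higher, and of the 822 lncRNA genes kept 10.9% were lower and 6.57% higher. The median log2 ratio was 0.01 over all genes kept and -0.11 over the lncRNA genes. The lncRNA class follows RefSeq biotypes and includes readthrough and antisense genes, whose rows may hold reads of overlapping coding genes. For 6 of 7 members the 95% interval lay wholly below 0, whether reads or pairs of reads were counted, and PVT1 was the exception. The share of all genes with such an interval is not given here, so this count has no background to compare with. At many reads even a small ratio excludes 0, as for TF with 60242 and 62137 reads at -0.03 (-0.05 to -0.02). The intervals come from the exact (Clopper-Pearson) interval for the fraction of a gene's reads found in the IP, and they cover counting error only. With 1 library per group no test between conditions could be run, and every ratio compares just this pair of libraries.

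**Figure D1:**
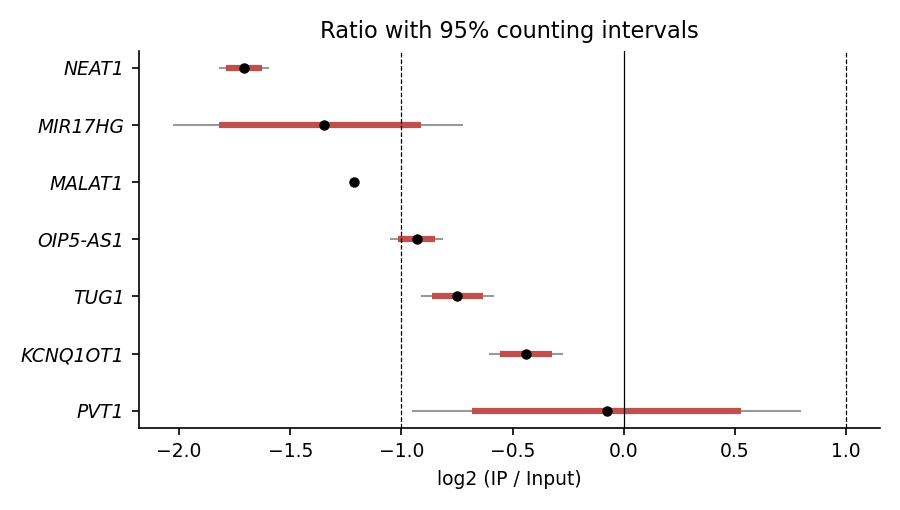
Log2 ratio of ZMAT2 IP over Input for the 7 lncRNAs with at least 20 reads. Points are the ratios, thick bars the 95% counting intervals on reads, thin bars those on pairs of reads, and dashed lines mark 2-fold. NEAT1 is lowest at -1.71, and the interval of PVT1 spans 0.

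MALAT1 gave by far the most reads of the set. It had 51344 IP reads and 119983 Input reads, equal to 2126 and 4925 CPM. The gene lies at chr11:65497762-65506516 (GRCh38, plus strand), a single exon block of 8755 bases in the table, and alone made up 0.205% of IP reads and 0.511% of Input reads. Its log2 ratio was -1.21 (-1.23 to -1.20), 2.32-fold lower in the IP, and 23.3% of its exon bases are shared with rows described next. Among 7145 other genes with at least 1000 reads, 61 stood lower than MALAT1 (0.854%). Of all reads on the 7 lncRNAs, MALAT1 held 90.3% in the IP and 90.9% in Input. The other 6 summed to 5488 and 12016 reads, a log2 ratio of -1.12 (-1.16 to -1.07), so the sum was also lower without MALAT1.

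The rows inside MALAT1 give reads for stretches of the gene, and 2 starts of the RNA lie near them. RefSeq (GRCh38.p14) gives a start at the 5′ end of the gene, chr11:65497738-65497787, and another further in, chr11:65499045-65499094. The first 50 bases of the RNA from each start are shown as DNA, with capitals for the bases that fall in the deposited exons.
MALAT1, outer start: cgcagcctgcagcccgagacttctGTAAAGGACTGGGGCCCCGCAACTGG
MALAT1, inner start: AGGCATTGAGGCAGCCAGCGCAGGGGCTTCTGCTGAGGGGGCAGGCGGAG
Between them lies AP000769.7, an opposite-strand row of 396 bases, at chr11:65498010-65498405, which had 2 IP reads and 0 Input reads. AP000769.1, also on the opposite strand, lies beyond the inner start at chr11:65502034-65503622 and had 5956 and 18332 reads. Its reads per base were 0.842 of those of the whole of MALAT1 in Input. Whether strand was used in counting is not given in the sources used here, so reads of MALAT1 and of an antisense RNA cannot be told apart in these rows.

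The ratio of the larger row differed from that of MALAT1 as a whole. AP000769.1 had a log2 ratio of -1.61 (-1.65 to -1.57). If its reads were counted for MALAT1 too, the remainder of MALAT1 outside both opposite-strand rows held 45386 and 101651 reads, with a ratio of -1.15 (-1.17 to -1.13). The 2 intervals did not overlap, nor did those on pairs of reads (-1.67 to -1.55 and -1.17 to -1.13). A further row, mascRNA-menRNA, joins the small tRNA-like RNAs that are cut from the 3′ ends of MALAT1 and NEAT1. It had 5 IP reads and 8 Input reads, too few for a ratio.

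NEAT1 had the lowest ratio of the set. It lies 52.2 kb from MALAT1 on the same strand, at chr11:65422774-65445540, in 1 exon block of 22767 bases. It had 1638 IP reads and 5398 Input reads, equal to 67.8 and 222 CPM. The log2 ratio was -1.71 (-1.79 to -1.63), 3.27-fold lower in the IP. Of the 7145 other genes with at least 1000 reads, 8 stood lower (0.112%), and of 88 other lncRNA genes of that depth, 0 did. The NEAT1 gene makes a short and a long RNA from the same start, and the short one ends within the 5′ part of the long one.

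Rows nested near the 5′ end of NEAT1, in the stretch that both forms share, had many reads for their length. Conserved segments named NEAT1_1, NEAT1_2 and NEAT1_3 begin 499, 864 and 1186 bases from the start and together cover 1.69% of the gene. Summed, they had 445 IP reads and 1335 Input reads, with a log2 ratio of -1.57 (-1.73 to -1.42). If these reads were counted for NEAT1 too, they made up 24.7% of its Input reads, and the remainder had a ratio of -1.75 (-1.85 to -1.66), with overlapping intervals. Whether reads were counted for every overlapping gene is not given in the sources used here. NEAT1_1 had 270 and 839 reads (-1.62, -1.83 to -1.42) and NEAT1_3 149 and 363 (-1.27, -1.56 to -0.99). NEAT1_2, with 26 and 133 reads, was lowest at -2.32 (-3.01 to -1.73). The intervals of NEAT1_2 and NEAT1_3 did not overlap on reads but did on pairs of reads.

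**Figure D2:**
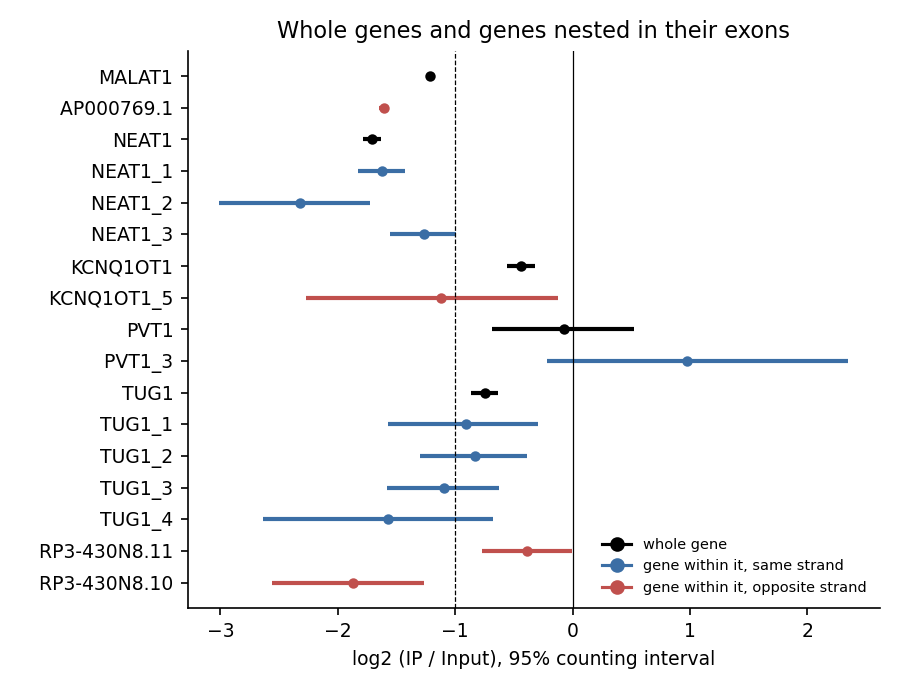
Log2 ratio of ZMAT2 IP over Input for 5 lncRNA genes (black) and for the genes with at least 20 reads nested in their exons, on the same strand (blue) or the opposite strand (red), ordered from the 5′ end of each host. Bars are 95% counting intervals on reads. Below 0 lie 11 of the 12 nested genes and all 5 hosts. Reads of a nested gene may also be counted for its host, so these are not separate observations.

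MIR17HG, the primary transcript that the nuclear enzyme DROSHA cuts to release the miR-17-92 microRNAs, was also past 2-fold lower, at few reads. It lies at chr13:91347820-91354579 and had 58 IP reads and 150 Input reads, equal to 2.40 and 6.16 CPM. The log2 ratio was -1.35 (-1.82 to -0.91), or -2.03 to -0.72 on pairs of reads, so the interval reached to less than 2-fold. No exon base of MIR17HG is shared with another gene in the table. Of the 6568 genes with at least 100 but under 1000 reads, 5.42% were past 2-fold lower. All 6 microRNA hairpins, within 787 bases at chr13:91350605-91351391, lie wholly in its deposited exons. They are shown because this cluster is what MIR17HG is known for. The table counts reads over all 3492 exon bases, so it does not tell uncut RNA from the stretches left after cutting. From RefSeq (GRCh38.p14), the mature forms are given 5′ to 3′ with the seed, bases 2 to 8, in capitals, one arm of each hairpin, grouped by seed.
hsa-miR-17-5p: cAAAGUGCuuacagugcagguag
hsa-miR-20a-5p: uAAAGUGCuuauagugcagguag
hsa-miR-18a-5p: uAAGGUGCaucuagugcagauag
hsa-miR-19a-3p: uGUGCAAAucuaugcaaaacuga
hsa-miR-19b-3p: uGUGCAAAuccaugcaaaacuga
hsa-miR-92a-3p: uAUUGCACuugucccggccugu
The forms miR-17-5p and miR-20a-5p share a seed, as do miR-19a-3p and miR-19b-3p, while miR-18a-5p and miR-92a-3p have seeds of their own. The mature microRNAs were not measured in these mRNA libraries.

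OIP5-AS1 and TUG1 were lower by less than 2-fold, at more than 1000 reads each. OIP5-AS1 is the human counterpart of Cyrano, which in mouse directs the decay of the microRNA miR-7. At chr15:41283990-41309737, it had 1758 IP reads and 3382 Input reads, equal to 72.8 and 139 CPM. Its log2 ratio of -0.93 (-1.02 to -0.85), 1.91-fold lower, reached 2-fold within its interval. The deposited start is that of RefSeq (GRCh38.p14), and the first 50 bases of the RNA, chr15:41283990-41284039, all within deposited exons, are shown as DNA.
OIP5-AS1, start: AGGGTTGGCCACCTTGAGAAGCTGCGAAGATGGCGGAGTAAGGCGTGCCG
At its other end OIP5-AS1 shares 470 bases, 3.71% of its exons, with OIP5, a centromere protein gene on the opposite strand. These bases are 38.0% of the exons of OIP5, so the OIP5 count may include reads of OIP5-AS1. OIP5, with 313 and 262 reads, stood at 0.27 (0.03 to 0.51), and the interval on pairs of reads, -0.07 to 0.62, included 0.

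TUG1, a conserved transcript that RefSeq lists as protein coding and that is widely studied as a lncRNA, lies at chr22:30970677-30979395. It had 973 IP reads and 1649 Input reads, equal to 40.3 and 67.7 CPM, and a log2 ratio of -0.75 (-0.86 to -0.63), 1.68-fold lower, with 21.5% of its exon bases in nested rows. The conserved segments TUG1_1 to TUG1_4, on its own strand, had ratios of -0.91, -0.83, -1.09 and -1.57, each with an interval that included the value of the whole gene. The opposite-strand rows within it stood apart from each other. RP3-430N8.11, with 103 and 136 reads, stood at -0.39 (-0.77 to -0.01). RP3-430N8.10, with 27 and 101 reads, stood at -1.87 (-2.56 to -1.27). Their reads per base in Input were 1.03 and 1.58 of those of TUG1.

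KCNQ1OT1 and PVT1 were nearest to the bulk of genes. KCNQ1OT1, an unspliced RNA that silences imprinted genes around it from the paternal chromosome, covers 91667 bases in 1 exon block at chr11:2608328-2699994 (minus strand). It had 1014 IP reads and 1387 Input reads, equal to 42.0 and 56.9 CPM, and a log2 ratio of -0.44 (-0.56 to -0.32), 1.36-fold lower. Within it, KCNQ1OT1_5, a segment 1918 bases from the 5′ end that the table lists on the opposite strand, had 12 and 27 reads, 7.90 times the reads per base of the whole gene in Input. KCNQ1, the potassium channel gene that KCNQ1OT1 runs through, had 0 IP reads and 2 Input reads. Its exons share 121 bases with KCNQ1OT1.

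PVT1, spliced from 306721 bases of chromosome 8 (127794533 to 128101253), had 47 IP reads and 50 Input reads, equal to 1.95 and 2.05 CPM. The log2 ratio of -0.08 (-0.68 to 0.53) was not distinguishable from 0 at this depth, and the interval also allowed 1.5-fold lower. PVT1_3, a nested segment of 95 bases, had 18 IP reads and 9 Input reads of its own row, and whether these are also among the PVT1 reads is not stated. The ratio there was 0.97 (-0.22 to 2.35). If the reads of PVT1_3 and of PVT1_1, another nested segment, were among them, the rest of PVT1 held 23 and 33 reads. The ratio of that rest was -0.50 (-1.34 to 0.30), with an interval that also included 0. The rows of MIR1205, MIR1206 and MIR1207, microRNA genes within its span, had 0 reads in both libraries.

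MEG3 had 0 reads in both libraries. MEG3 is an imprinted lncRNA made from the maternal chromosome 14 and often silenced in tumours. By counting error, a count of 0 leaves room for about 3 reads. The level of MEG3 thus has an approximate upper bound of 0.124 CPM in the IP library and 0.123 CPM in the Input library. This bound is not a strict limit, and no ratio is given. The gene spans chr14:100779410-100861031, and all 7 other rows that lie in that span and on no other chromosome, among them MEG8 and the microRNA gene MIR770, were also at 0. The nearest genes with at least 1000 reads were WARS (now WARS1), 403 kb to the left with 754 and 714 reads, and PPP2R5C, 901 kb to the right with 1057 and 1506.

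In order of the ratio, not all neighbours could be told apart by counting error. The interval of MIR17HG overlapped those of NEAT1 and MALAT1 on either side of it. MALAT1 and OIP5-AS1 did not overlap, OIP5-AS1 and TUG1 did, and KCNQ1OT1 and PVT1 did. TUG1 and KCNQ1OT1 were apart on reads but overlapped on pairs of reads. Per kilobase of exon the order of levels was different. In Input, MALAT1 stood at 563 CPM per kb, OIP5-AS1 at 11.0, TUG1 at 9.96 and NEAT1 at 9.73, while MIR17HG, KCNQ1OT1 and PVT1 stood at 1.76, 0.621 and 0.374. In the IP, NEAT1 at 2.98 CPM per kb lay below TUG1 at 5.93 and OIP5-AS1 at 5.74.

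**Figure D3:**
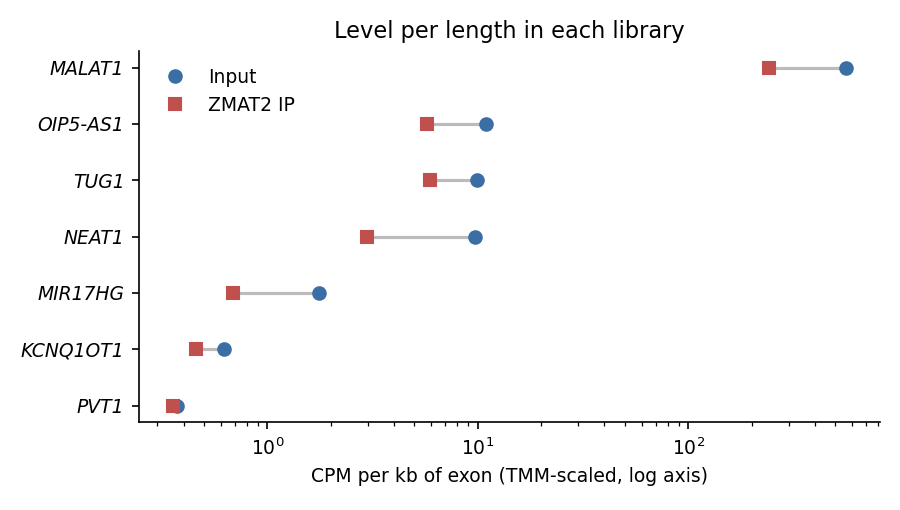
Level of each lncRNA in CPM per kilobase of exon (TMM-scaled, log axis) in Input (circles) and ZMAT2 IP (squares). Each gene's IP value lies left of its Input value, from 563 against 243 for MALAT1 to 0.374 against 0.354 for PVT1.

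The genes around these lncRNAs had ratios on both sides of 0. For each member the nearest gene on either side with at least 1000 reads and no shared exon base was taken, 13 genes reported here that are not members, of which WARS and PPP2R5C flank MEG3, which has no ratio. None of the 13 was past 2-fold, and their log2 ratios ran from -0.83 to 0.80, with 6 above 0 and 7 below. Among all genes with at least 1000 reads 2.71% were past 2-fold lower and 4.56% higher, so few or none of 13 past 2-fold is near that background. NEAT1 lies between POLA2, a DNA polymerase alpha subunit gene, at 0.76 (0.60 to 0.93) and MALAT1. TUG1 lies between MORC2, a chromatin silencing gene that shares 25.8% of its exon bases, at 0.71 (0.62 to 0.79) and SMTN, a smooth muscle cytoskeleton gene, at 0.80 (0.72 to 0.88). OIP5-AS1 lies between CHP1 at -0.21 and the spindle gene NUSAP1 at -0.03. KCNQ1OT1 lies between INS-IGF2 at -0.15, which shares 66.7% of its exon bases with other genes, and NAP1L4 at -0.10, and MIR17HG between SPRY2 at 0.27 and GPC6 at -0.25. PVT1 had MYC at 0.48 (0.35 to 0.61) on one side and FAM49B (now CYRIB) at -0.83 (-0.91 to -0.75) on the other. Distances to the lncRNA varied widely, so some of these genes are far from it. CHP1 lay 2.1 kb and MORC2 2.4 kb away, but INS-IGF2 447 kb, FAM49B 1738 kb, GPC6 1872 kb and SPRY2 11007 kb.

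**Figure D4:**
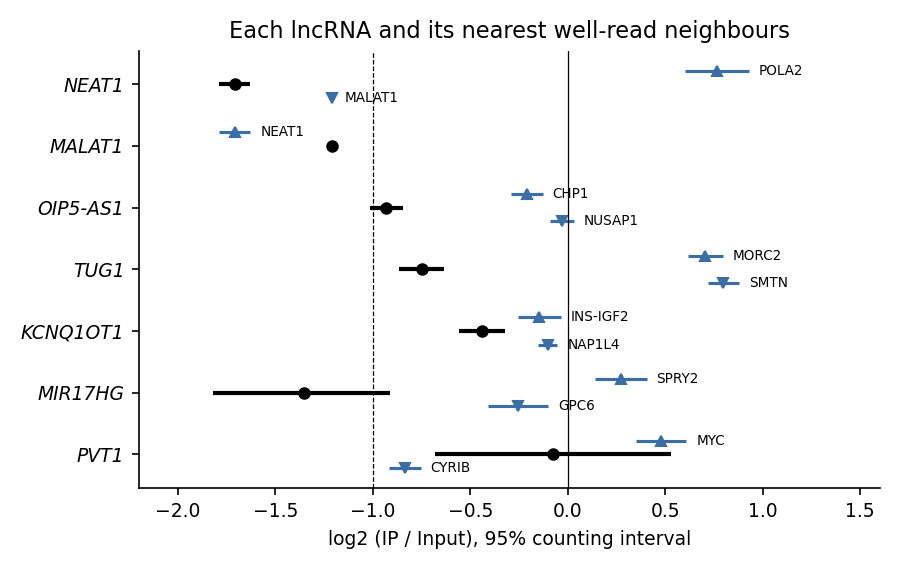
Log2 ratio of ZMAT2 IP over Input for each lncRNA (black circles) and for the nearest gene with at least 1000 reads to its left (triangles up) and right (triangles down), with 95% counting intervals on reads. NEAT1 and TUG1 lie below 0 and the flanking genes POLA2, MORC2 and SMTN above it. For MALAT1 the left neighbour alone, NEAT1, is drawn.

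The members with at least 1000 reads stood at different places among lncRNA genes of that depth. Of 88 other lncRNA genes with at least 1000 reads, the median log2 ratio was 0.07 and 6 were past 2-fold lower. This class follows RefSeq biotypes and includes readthrough genes, which join exons of neighbouring genes, such as SENP3-EIF4A1 with 25863 and 18473 reads. It also includes antisense genes such as NUCB1-AS1, with 3567 and 3819 reads. Such rows may hold reads of overlapping coding genes, so the ranks below are not ranks among lncRNAs alone. Of these 88, 0 stood lower than NEAT1, 2 lower than MALAT1 (2.27%), 6 lower than OIP5-AS1 (6.82%), 11 lower than TUG1 (12.5%) and 24 lower than KCNQ1OT1 (27.3%). With MALAT1, NEAT1, OIP5-AS1 and KCNQ1OT1 included, but not TUG1, which is listed as protein coding, 8.7% of the 92 lncRNA genes of that depth were past 2-fold lower, against 2.71% of 7150 genes of any kind, and 2.17% and 4.56% were past 2-fold higher. The lncRNA nearest in ratio to MALAT1 was NORAD, a mainly cytoplasmic RNA that binds Pumilio proteins, with 9708 and 22597 reads and a ratio of -1.21 (-1.24 to -1.17). Next came DYX1C1-CCPG1, a readthrough gene with all of its exon bases shared, at -1.08, SNHG6, with 36.4% shared, at -1.06 and MAGI2-AS3 at -1.05. JPX, a nuclear RNA of the X inactivation centre with 22.3% shared, stood at -1.48 (-1.67 to -1.30). Nearest to NEAT1 was CERS6-AS1, with 299 and 970 reads and 69.7% of its exon bases shared, at -1.68, followed by the same genes JPX, NORAD, DYX1C1-CCPG1 and SNHG6. Likeness here is the absolute difference of 1 ratio from 2 libraries.

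**Figure D5:**
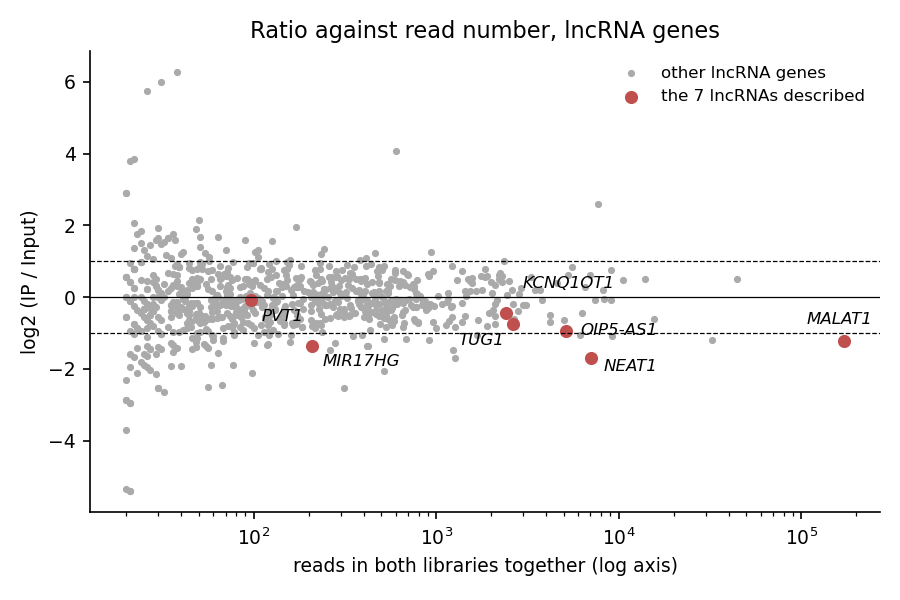
Log2 ratio of ZMAT2 IP over Input against the reads in both libraries together (log axis) for lncRNA genes with at least 20 reads, with the 7 lncRNAs described in red and dashed lines at 2-fold. MALAT1, NEAT1 and MIR17HG lie below the lower line, and the scatter of the other genes is widest at few reads. A single lncRNA gene is not drawn.

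Further lncRNAs were described in the same way. In a list of 24 other nuclear lncRNAs, 15 were kept, with a median of -0.51, 2 past 2-fold lower and 1 higher. Those lower were JPX and LINC01138, the latter with 15 and 34 reads at -1.14 (-2.15 to -0.25). TERC, the telomerase RNA, was the higher one, with 4100 and 1962 reads at 1.08, and it shares 81.0% of its exon bases. LINC01578 (now CHASERR), with 1210 and 1589 reads, stood at -0.38 (-0.49 to -0.27). A list of 20 names of mainly cytoplasmic or snoRNA-hosting lncRNAs gave 19 genes, since LINC00152 and CYTOR name the same gene. Of these 16 were kept, with a median of -0.16, and 3 were past 2-fold lower. Those were NORAD, SNHG6 and EPB41L4A-AS1, which shares 49.6% of its exon bases and stood at -1.18 (-1.39 to -0.98). Past 2-fold lower were 13.3% of the nuclear genes kept and 18.8% of the cytoplasmic or snoRNA-hosting ones, against 10.9% of the 822 lncRNA genes kept. Past 2-fold higher were 6.67% and 0%, against 6.57%. The members' median was -0.93, and that of all lncRNA genes kept was -0.11.

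The mRNAs of proteins that share bodies or pathways with these RNAs were described from 3 lists. No mRNA of these lists was past 2-fold, and neither were most genes of any kind, with 2.71% lower and 4.56% higher among those with at least 1000 reads. Of 20 paraspeckle protein mRNAs 0 were past 2-fold in either direction, with a median of -0.10. The NEAT1-binding protein gene NONO was at 0.74 (0.70 to 0.78), SFPQ at -0.12, HNRNPA1 and HNRNPK, those with the most reads, at -0.23 and 0.31, and the farthest were NUDT21 at -0.89 and SMARCA4 at 0.87. Of 22 nuclear speckle protein mRNAs 0 passed 2-fold, with a median of -0.09. SRRM2, a core scaffold of speckles, stood at 0.13 (0.09 to 0.17), SRSF3 at 0.16, SRSF11 at -0.59 and U2AF1, with 36 and 63 reads, at -0.79. Of 15 mRNAs for chromatin repressors and microRNA processing factors 0 passed 2-fold, with a median of 0.19, and DNMT1, RBBP4 and EHMT2 stood at 0.78, 0.09 and 0.75. DROSHA, the enzyme that cuts MIR17HG, was at 0.40 (0.32 to 0.48). NONO, SFPQ and DROSHA were chosen after their values were seen.

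The 2 libraries differed in other ways too, and the part of these differences in the result was not tested. ZMAT2 itself had 36553 and 5187 reads, a log2 ratio of 2.83 (2.79 to 2.87), and TRIM28 stood at 1.13 (1.06 to 1.20). Mitochondrial genes made up 6.5% of the IP library against 2.66% of the Input library. All 10 hepatocyte and hepatoma markers reported here were kept, with a sum of 15368 CPM for the IP and 21653 CPM for Input. Their log2 ratios ran from -0.81 for AFP to 0.38 for HNF4A, with ALB and APOB at -0.53 and -0.69. Of 18 markers of immune, stromal, endothelial and biliary cells, 9 were below 20 reads, and none of the rest was past 2-fold. Those with at least 1000 reads were LYZ, SOX9 and KRT19. LYZ, with 34.0% of its exon bases shared, had 6011 and 8837 reads (-0.54). SOX9 had 2960 and 2523 (0.24), and KRT19 had 1309 and 717 (0.88). Ratios were also described by exon length. Among other lncRNA genes with at least 100 reads, the 99 with at least 5 kb of exon had a median of -0.27 and 9 past 2-fold lower (9.09%), and the 205 with 2 to 5 kb a median of 0.03 and 8 lower (3.90%). The 81 with 1 to 2 kb had a median of 0.04 and 6 lower (7.41%), and the 60 below 1 kb a median of -0.08 and 2 lower (3.33%). Of the 7 measured members, MIR17HG alone has less than 5 kb of exon. KCNQ1OT1, the longest, stood at -0.44.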

How the data were processed

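The members and gene lists were chosen with earlier results of these data known. The deposited table holds raw read counts per gene with exon coordinates and length, per the file headers. Build GRCh38 and the tools STAR 2.5.3a, fastp 0.23.4 and edgeR 3.12.1 appear, without roles, in the submitters' processing notes. The counting tool and its strand setting are not given in the labels or file headers. Of genes with 1 to 6 reads, 77.9% of IP and 67.1% of Input counts were even, so mates may have been counted singly. Intervals were therefore also computed on pairs, 2 reads as 1. Counts were scaled by TMM (edgeR 4.0.16, R 4.3.3) over genes with at least 20 reads. The log2 ratio used a prior count of 0.5, and a call is 2-fold. With 1 library per group no residual spread exists for edgeR's quasi-likelihood test, and calls by size alone are no test. Intervals and floors cover counting error only, since reads are not independent molecules. RefSeq (GRCh38.p14) gave biotypes and sequences, with 33448 names matched by symbol and 1811 by an older symbol. Shared exon bases were found by position on either strand. Genes were named by a fixed rule: members, rows nested in or overlapping them, nearest neighbours, nearest ratios, and from each list the genes with the most reads and farthest from the median, with some left out. The ratio and interval code was tested on simulated data. Alternatives were other scalings (among them DESeq2 1.42.0 size factors), read minimums, a prior count of 2, intervals and fold sizes. A neighbouring gene and a marker gene are not reported here.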

Additional observations from a re-analysis of the deposited data

How the results depend on the processing

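All 7 lncRNAs kept a log2 ratio below 0 under every scaling, read minimum and prior count that kept them. Across these settings NEAT1 ran from -1.81 to -1.66, MALAT1 from -1.32 to -1.16, MIR17HG from -1.46 to -1.30, OIP5-AS1 from -1.04 to -0.88, TUG1 from -0.85 to -0.70, KCNQ1OT1 from -0.54 to -0.39 and PVT1 from -0.18 to -0.02. Scaling by library totals moved the median of all genes by -0.11, and with it the members' median was -1.04, OIP5-AS1 passed 2-fold as the 4th member, and the share of all calls that were higher went from 50.7% to 39.6%. Of 17915 genes, 1670 were then past 2-fold lower, against 1343 with TMM. At a minimum of 100 reads, which drops PVT1, the members' median was -1.08. At 1.5-fold, 5 members were lower, as were 3313 of 17915 genes. Counts over all genes moved with the number of genes kept and the fold. Without a filter 27776 genes were kept, and 345 lncRNA genes and 5816 genes in all were lower and 4380 higher. At 100 reads 13718 genes were kept, with 28, 582 and 761, and at 1000 reads 7150, with 8, 191 and 329. At 1.5-fold, with 17915 genes kept, the counts were 194, 3313 and 3585. Members past 2-fold lower were 3 of 7 without a filter, 3 of 6 at 100 reads and 2 of 5 at 1000 reads. Of genes with 20 to 99 reads, the depth of PVT1, 18.9% were past 2-fold lower, so calls there are uncertain. No paired analysis was possible because each group holds 1 library.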
